A study of Mus musculus with 2 samples.

Results

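Microglia are the resident macrophages of the brain, and glucocorticoids are steroid hormones that act on cells through a receptor that binds DNA. The data described here concern 10 genes whose transcripts were among those lowest in microglia of corticosterone-treated mice relative to vehicle-treated mice: Csmd3, Myo18b, Tnfrsf17, Rapsn, Upk1b, Lrrc39, Rnase6, Calhm6, Col6a3 and Angptl7. They were read by symbol, and each of the 10 was found once among the 32589 features of the 2 deposited count matrices. They were selected on their low ratio of corticosterone over vehicle in microglia-like cells of these 2 libraries, so that this ratio is a description and not a finding. How each transcript was spread over groups of cells, over single cells and over other barcodes is also given as a description, since these belong to the same libraries.

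Cells were sorted as CD45-low, CD11b-positive from the prefrontal cortex of C57BL/6 mice, and there was 1 single-cell library per group. The corticosterone group had been given corticosterone, the main glucocorticoid of rodents, by oral gavage to model the depression that goes with an excess of stress hormone, and the other group had been given vehicle. Both groups share strain, brain region and sort. Dose, time, age, sex and the number of pooled animals are not given in the sources used here, and the names of the deposited files call the groups wild type and depression. With 1 library per group no test between groups was possible, no p-value was computed, and treatment cannot be told apart from library, animal, day or preparation.

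The vehicle library kept 10500 cells and the corticosterone library 17883 cells, with median depths of 3220.5 and 3961 UMIs, where a UMI is a tag that marks a captured transcript. Microglia-like cells, named from clusters by marker genes, were 8014 cells with 33207469 UMIs in vehicle and 15317 cells with 71739515 UMIs in corticosterone. The 10 microglia markers used for naming summed to 35019 and 30954 CPM (counts for each 1000000 UMIs of the group), with none at 0 in either library, so the defining markers of the labelled cell type were present. A total of 104 cell barcodes occurred in both libraries. Intervals below are at the 95% level and cover counting error only. They are too narrow, since UMIs of a gene clumped in cells somewhat more than independent molecules would.

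The 10 genes do not form a known pathway. Most are best known from other tissues: from neurons, striated muscle, the neuromuscular synapse, the urinary tract, plasma cells or connective tissue. Calhm6 and Rnase6 are known from myeloid cells. The genes lie on 9 chromosomes. By their products they fall into proteins of the cell surface (Csmd3, Tnfrsf17, Upk1b, Calhm6), of the cytoskeleton or the synaptic membrane's inner face (Myo18b, Lrrc39, Rapsn), and secreted proteins (Rnase6, Col6a3, Angptl7).

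All 10 genes had a lower CPM in the corticosterone library, with a median log2 ratio of corticosterone over vehicle of -2.99 and a range from -4.17 to -2.27. Together they held 498 CPM in vehicle and 73.5 CPM in corticosterone. Of the 10, 5 (Csmd3, Myo18b, Tnfrsf17, Rapsn and Upk1b) averaged 20 CPM or more across the 2 libraries. Of 6602 genes at that level, 1.30% had a log2 ratio at or below -1, and the median of all of them was 0.00. At an average of 5 CPM or more, which all 10 members passed, 2.04% of 9676 genes were at or below -1. The choice of the members used this contrast, and nothing is read from their count against these shares. Above 20 CPM, the member with the highest ratio was Upk1b at -2.27, and the genes that followed it outside the list were Fcrls at -2.21 and Ncaph at -2.13. At the minimum of 5 CPM, the 10 members lay among the 21 lowest of 9116 genes, predicted, mitochondrial and ribosomal genes left out.

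**Figure D1:**
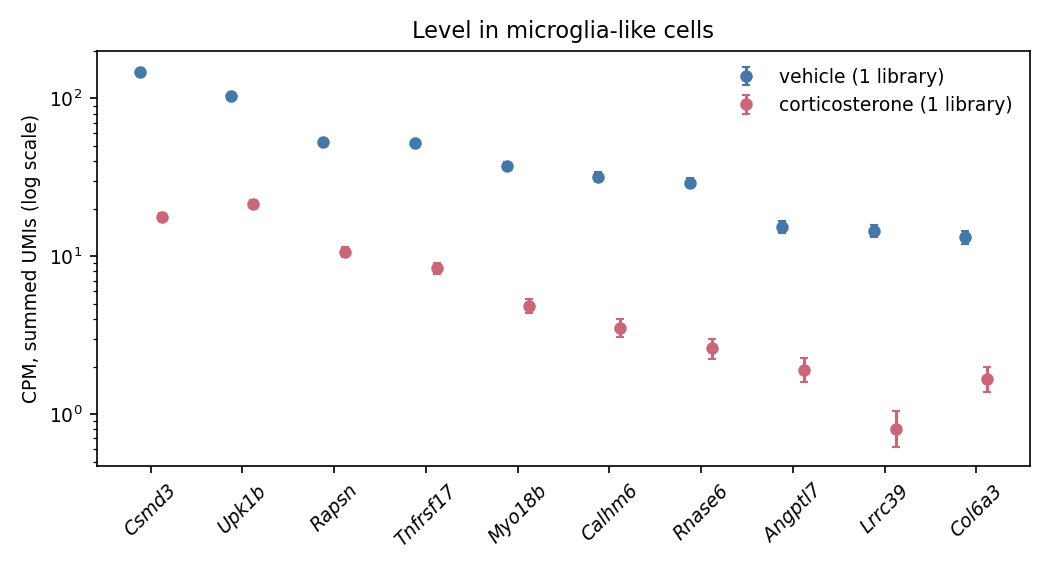
CPM of the 10 genes in microglia-like cells (log axis) in the vehicle library (blue) and the corticosterone library (red), 1 library each, with exact Poisson intervals of the summed UMIs. In each gene the vehicle point lies above the corticosterone point, from 148 against 17.7 CPM for Csmd3 to 13.2 against 1.66 CPM for Col6a3.

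Among the surface proteins, Csmd3 encodes a very large transmembrane protein with CUB and sushi domains that is best known from neurons. Its gene (ENSMUSG00000022311) lies on chromosome 15 from 47580637 to 48792063 on the minus strand of GRCm38 and is the longest of the 10, at 1211 kb. It stood at 148 CPM (144 to 152, 4913 UMIs) in vehicle and at 17.7 CPM (16.7 to 18.7, 1269 UMIs) in corticosterone, so that the latter was 11.96% of the former. The log2 ratio was -3.06 (-3.15 to -2.98). Upk1b (ENSMUSG00000049436, chromosome 16, 38773184 to 38800328) encodes uroplakin 1b, a tetraspanin of the bladder lining. Vehicle cells held 103 CPM (99.9 to 107), corticosterone cells 21.5 CPM (20.5 to 22.6), and the log2 ratio was -2.27 (-2.35 to -2.18), the smallest difference of the 10.

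Tnfrsf17 (ENSMUSG00000022496, chromosome 16, 11313812 to 11320074) encodes BCMA, the receptor through which plasma cells receive the survival signals BAFF and APRIL. The vehicle level was 52.2 CPM (49.8 to 54.7), the corticosterone level 8.41 CPM (7.75 to 9.10), and the log2 ratio -2.64 (-2.77 to -2.50). Calhm6 (ENSMUSG00000046031, chromosome 10, 34126067 to 34127984) encodes a pore-forming protein of the calcium homeostasis modulator family that is induced by interferon in myeloid cells. Vehicle cells held 32.0 CPM (30.1 to 34.0), corticosterone cells 3.51 CPM (3.09 to 3.97), and the log2 ratio was -3.19 (-3.39 to -2.99).

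Among the proteins of the cell interior, Myo18b (ENSMUSG00000072720, chromosome 5, 112688876 to 112896362) encodes an unconventional myosin of striated muscle. Vehicle cells held 37.4 CPM (35.4 to 39.6), corticosterone cells 4.84 CPM (4.34 to 5.37), and the log2 ratio was -2.95 (-3.13 to -2.78). Lrrc39 (ENSMUSG00000027961, chromosome 3, 116562973 to 116583134) encodes a leucine-rich repeat protein of the sarcomere and overlaps Trmt13 on the opposite strand. Vehicle cells held 482 UMIs of it, or 14.5 CPM (13.3 to 15.9), whereas corticosterone cells held 58, or 0.808 CPM (0.614 to 1.04). Its log2 ratio of -4.17 (-4.58 to -3.77) was the lowest of the 10. Rapsn (ENSMUSG00000002104, chromosome 2, 91035620 to 91045729) encodes rapsyn, which clusters acetylcholine receptors at the neuromuscular synapse. Vehicle cells held 52.8 CPM (50.4 to 55.4), corticosterone cells 10.6 CPM (9.84 to 11.4), and the log2 ratio was -2.32 (-2.44 to -2.20).

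Among the secreted proteins, Rnase6 (ENSMUSG00000021880, chromosome 14, 51123908 to 51132187) encodes an antimicrobial ribonuclease of macrophages and other myeloid cells. Vehicle cells held 29.2 CPM (27.4 to 31.1), corticosterone cells 2.61 CPM (2.25 to 3.01), and the log2 ratio was -3.48 (-3.72 to -3.26). Col6a3 (ENSMUSG00000048126, chromosome 1, 90765923 to 90843971) encodes a chain of collagen VI, a matrix protein made mainly by fibroblasts. Vehicle cells held 13.2 CPM (11.98 to 14.5), corticosterone cells 1.66 CPM (1.37 to 1.98), and the log2 ratio was -2.99 (-3.30 to -2.70). Angptl7 (ENSMUSG00000028989, chromosome 4, 148495183 to 148500460) encodes an angiopoietin-like secreted protein known from the eye and lies within Mtor on the opposite strand. Vehicle cells held 15.2 CPM (13.9 to 16.6), corticosterone cells 1.91 CPM (1.60 to 2.26), and the log2 ratio was -3.0 (-3.28 to -2.72).

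Promoter sequences from RefSeq (GRCm38.p6), 250 bases before to 50 after a transcript start, were matched by symbol for 6 of the 10 members: Col6a3, Lrrc39, Angptl7, Calhm6, Rnase6 and Tnfrsf17. The core of the interferon-stimulated response element, GAAA followed after any 2 bases by GAAA, on either strand, was found in 3 of these 6, Calhm6, Rnase6 and Tnfrsf17, and in 3.44% of 32851 promoters (3.99% of genes). The 250 bases before the start of these 3 are printed, to show where the match lies, with the matches in capitals.
Calhm6, chr10:34127973-34128222, minus strand: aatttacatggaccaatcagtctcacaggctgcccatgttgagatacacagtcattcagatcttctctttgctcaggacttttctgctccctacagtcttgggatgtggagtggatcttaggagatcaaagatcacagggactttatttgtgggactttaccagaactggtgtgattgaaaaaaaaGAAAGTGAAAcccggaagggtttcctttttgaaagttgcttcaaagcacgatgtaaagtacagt
Rnase6, chr14:51128814-51129063, plus strand: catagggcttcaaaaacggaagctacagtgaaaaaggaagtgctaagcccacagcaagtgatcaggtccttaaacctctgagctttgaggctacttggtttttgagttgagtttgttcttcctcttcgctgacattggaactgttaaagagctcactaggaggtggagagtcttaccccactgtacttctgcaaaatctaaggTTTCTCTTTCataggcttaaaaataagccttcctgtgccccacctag
Tnfrsf17, chr16:11313559-11313808, plus strand: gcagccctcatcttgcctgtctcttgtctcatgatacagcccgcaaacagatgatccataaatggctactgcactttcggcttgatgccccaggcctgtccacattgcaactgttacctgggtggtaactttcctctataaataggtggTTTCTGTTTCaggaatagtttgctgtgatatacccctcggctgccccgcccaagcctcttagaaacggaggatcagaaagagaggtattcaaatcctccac
Each match is a description of letters and not of a bound site. Rnase6 has 3 starts in the table, of which 2 overlap and hold the same match. The glucocorticoid receptor motif, searched as GNACA and TGTNC with any 3 bases between, was in none of the 6 and in 0.475% of all promoters. TTANGTAA, the D-box of clock-controlled genes, was in none and in 2.32%, and TGANTCA, the AP-1 motif, in none and in 7.81%. AGGAAG, a core bound by ETS factors such as PU.1, was in 4 of 6 and in 35.4% of all promoters, the E-box CACGTG in 1 (Lrrc39) and 7.15%, and TATAAA in 1 (Tnfrsf17) and 13.6%. Matches of different motifs were counted separately, also where they overlapped.

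Markers of the tissues from which these genes are best known were low in microglia-like cells. The 6 skeletal muscle markers summed to 0.391 CPM in vehicle and 1.10 CPM in corticosterone, with Myh1, Tnnc2 and Des at 0 in both libraries. The 5 urothelium markers summed to 0.181 and 0.0418 CPM, with 4 of the 5 at 0, and the 6 neuron markers to 2.05 and 1.10 CPM. The 6 fibroblast markers summed to 1.48 and 0.781 CPM, with Col1a1 highest at 0.542 and 0.293 CPM. Of the 6 plasma cell markers, Ighm stood at 413 and 387 CPM and Derl3 at 1.60 and 4.15 CPM, whereas Mzb1 and Igha were at 0 and Jchain and Sdc1 had at most 2 UMIs in a library. Of 20 marker lists, 14 had a lower summed level in corticosterone, as the members did. The 8 neutrophil markers summed to 418 (vehicle) and 137 CPM (corticosterone), the 6 erythroid markers to 44.5 and 23.1 CPM, and the 6 astrocyte markers to 207 and 92.8 CPM, nearly all of the last from Slc1a3. All 8 neutrophil markers were lower and none was at 0, and Gfap of the astrocyte markers was at 0 in vehicle. The summed macrophage and endothelial lists did not fall (318 and 331 CPM, 409 and 427 CPM), since most of each came from 1 gene, Stab1 and Bsg. Of the 10 border-associated macrophage markers, 8 were lower, such as Pf4 at 27.3 and 7.46 CPM, Lyve1 at 4.22 and 1.63 CPM and Folr2 at 3.67 and 1.14 CPM. Of the 7 endothelial markers, 5 were lower, among them the adhesion molecule Pecam1 at 35.5 and 3.83 CPM and Cdh5, the cadherin of endothelial junctions, at 2.68 and 0.349 CPM. The part of these cells in the members' ratios was not tested.

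To read whether the lower level was uniform across microglia-like cells, they were clustered again with the 10 genes left out and with each gene centred within its library, which gave 5 sub-clusters of at least 50 cells in each library. They were led by immediate early genes (sub-cluster 0, 4214 vehicle and 7757 corticosterone cells), by Cmss1 and Cdk8 (sub-cluster 1, 3329 and 6693), by interferon-induced genes (sub-cluster 2, 86 and 499), by neutrophil granule genes such as Ngp and Camp (sub-cluster 3, 289 and 253) and by Csf1 and Cxcl2 (sub-cluster 4, 82 and 113). The summed CPM of the 10 genes was 483 in vehicle and 75.5 in corticosterone in sub-cluster 0, 561 and 73.2 in sub-cluster 1, 399 and 58.9 in sub-cluster 2, 494 and 63.7 in sub-cluster 3, and 370 and 41.2 in sub-cluster 4. The log2 ratio of that sum lay between -3.17 and -2.68. The members were selected on the ratio of all these cells together, and the sub-clusters are parts of 1 library per group. Nothing is therefore read from the sum being lower in each sub-cluster.

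Gene by gene, the log2 ratios of members with UMIs in both libraries of a sub-cluster lay between -4.30 and -1.42. The members were selected on the ratio of all microglia-like cells. The share of all genes at or below -1 in each sub-cluster was not computed, so nothing is read from the number of members that were lower. Csmd3 ranged from -4.02 (-5.39 to -2.89) in sub-cluster 4 to -2.96 (-3.07 to -2.84) in sub-cluster 0. Upk1b ranged from -3.55 (-5.53 to -2.02) in sub-cluster 4 to -1.87 (-2.55 to -1.17) in sub-cluster 2, and Rapsn from -3.34 (-4.85 to -2.12) in sub-cluster 3 to -2.02 (-3.43 to -0.75) in sub-cluster 4. The highest ratio was that of Col6a3 in sub-cluster 2, at -1.42 (-4.03 to 1.97) from 2 and 5 UMIs, and Lrrc39 stood at -1.85 (-7.73 to 2.41) in sub-cluster 4 from 2 and 1 UMIs. The intervals of these 2 ratios include 0. In sub-cluster 4, 4 members had no UMI in 1 of the libraries and no ratio was taken. Myo18b had 10 UMIs in vehicle and 0 in corticosterone, Angptl7 4 and 0, and Col6a3 2 and 0. Rnase6 went the other way there, with 0 UMIs in vehicle and 4 in corticosterone (5.15 CPM). In the interferon-led sub-cluster 2, Calhm6 had 46.8 (vehicle) and 7.66 CPM (corticosterone), against 31.4 and 3.27 CPM in sub-cluster 0. The log2 ratio there was -2.61 (-3.53 to -1.69), whose interval overlaps that of sub-cluster 0 at -3.26 (-3.53 to -3.0).

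When microglia-like cells of both libraries were cut into 5 equal groups by their UMIs, the summed CPM of the members went from 617 to 83.8 in the shallowest group (up to 2553 UMIs) and from 458 to 74.2 in the deepest (5601 UMIs and above). The log2 ratios of the sum lay between -2.90 and -2.63. The ratios of single members lay between -5.89 and -2.12 over the 5 groups. The members were selected on the ratio of all these cells together. The share of all genes at or below -1 in each depth group was not computed, so nothing is read from the number of members that were lower. Csmd3 ranged from -3.37 to -2.83, Upk1b from -2.48 to -2.12 and Lrrc39, the most scattered, from -5.89 to -3.19.

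**Figure D2:**
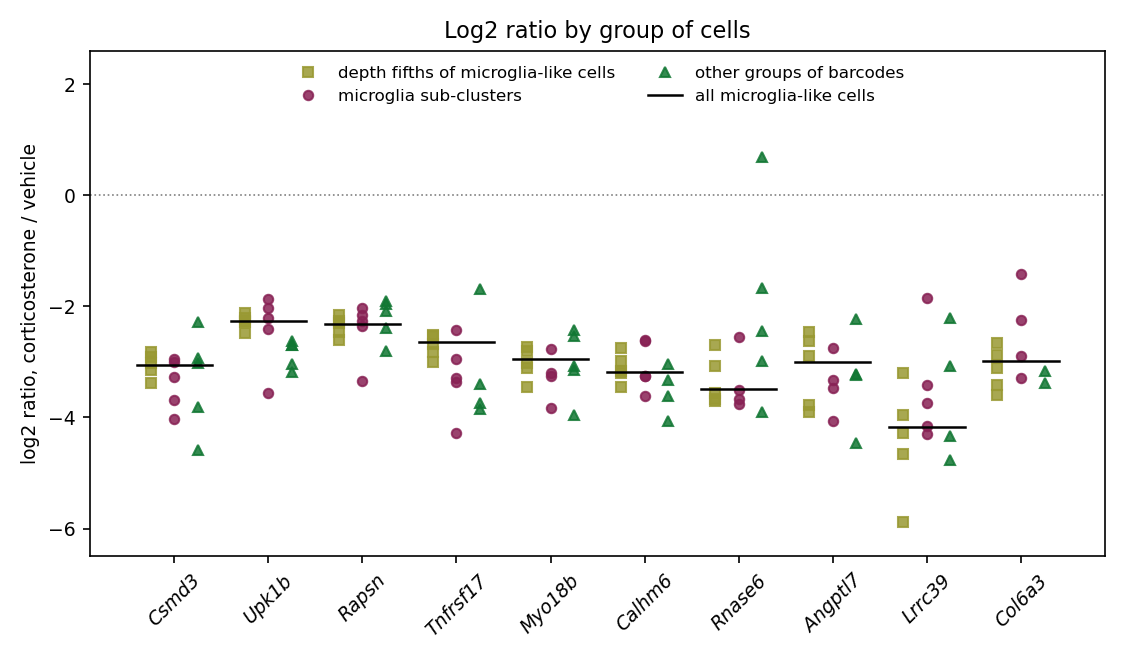
Log2 ratio of corticosterone over vehicle for each gene (y axis) in 5 depth groups of microglia-like cells (squares), in microglia sub-clusters (circles), in other groups of barcodes with at least 50 cells per library (triangles) and in all microglia-like cells (black bars). A group without UMIs in 1 library has no point. The points lie below 0 in every gene except 1 triangle of Rnase6 at 0.70, that of cluster 7.

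A second split compared cells by the kind of cell they clustered with. In a clustering of both libraries together, without centring and again without the 10 genes, 231 corticosterone cells (1.51% of its microglia-like cells) fell in clusters made up mainly of vehicle cells, and 550 vehicle cells (6.86%) in clusters made up mainly of corticosterone cells. The other 429 vehicle and 199 corticosterone cells were in mixed clusters. A cluster counted as led by a library when it held over 9 times as large a share of that library as of the other. Cybb, a subunit of the phagocyte NADPH oxidase that was far higher in corticosterone, stood at 5.35 CPM in vehicle cells of vehicle-led clusters and at 264 CPM in corticosterone cells of corticosterone-led clusters. It stood at 29.8 CPM in vehicle cells of corticosterone-led clusters and at 32.9 CPM in corticosterone cells of vehicle-led clusters, between the other values. The lipid carrier Apoe stood at 405 CPM in vehicle cells of vehicle-led clusters, 1255 CPM in vehicle cells of corticosterone-led clusters, 1432 CPM in corticosterone cells of vehicle-led clusters and 4481 CPM in corticosterone cells of corticosterone-led clusters.

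Cybb and Apoe took part in this clustering and the 10 members did not, so no contrast between them is drawn. The members' summed level lay nearer to that of the cells' own library. The summed CPM was 502 (494 to 510) in vehicle cells of vehicle-led clusters and 473 (435 to 514) in vehicle cells of corticosterone-led clusters. It was 97.3 (76.8 to 122) in corticosterone cells of vehicle-led clusters and 73.6 (71.6 to 75.7) in corticosterone cells of corticosterone-led clusters. Csmd3 stood at 149, 130, 21.5 and 17.7 CPM in the same order, and Tnfrsf17 at 52.8, 51.3, 7.58 and 8.44 CPM. In corticosterone cells of vehicle-led clusters, Lrrc39 and Col6a3 had 1 UMI each and Rnase6 had none. The members were selected on a large gap between the libraries, and the share of all genes that behave likewise was not computed. No count of members is therefore read from these cells. Myo18b lay between in corticosterone cells of vehicle-led clusters, with 11 UMIs and 13.9 CPM (6.94 to 24.9), against 37.6 CPM in vehicle cells of the same clusters and 4.78 CPM in the corticosterone-led ones. How much of the members' UMIs in these cells is free RNA of the library was not tested. Of the 231 corticosterone cells, 2 carried a barcode found in both libraries, as did 4 of the 550 vehicle cells.

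**Figure D3:**
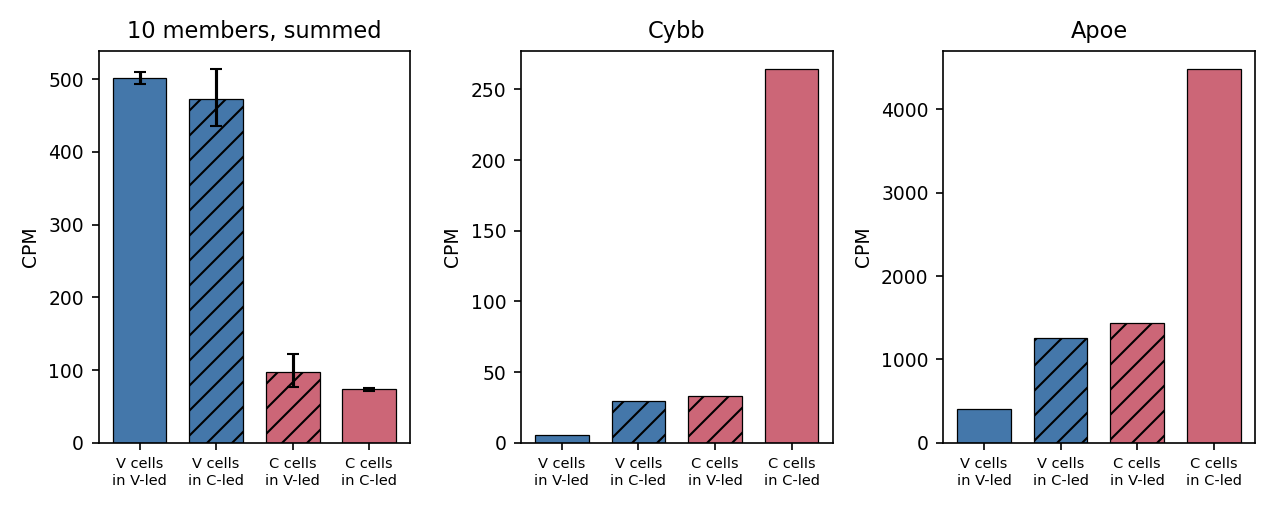
CPM of the 10 genes summed (left, with exact Poisson intervals), of Cybb (middle) and of Apoe (right) in vehicle cells (V, blue) and corticosterone cells (C, red) by the library that leads their cluster, with hatching for cells in clusters led by the other library. The members' bars lie near the level of the cell's own library (502 and 473 against 97.3 and 73.6 CPM), and the hatched bars of Cybb and Apoe, which unlike the members took part in the clustering, lie between the plain ones.

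The share of single cells with a UMI followed the summed levels. Each cell was thinned at random to 1000 UMIs, so that deeper cells were not favoured, which left out 631 vehicle and 109 corticosterone cells. Csmd3 was found in 13.9% of vehicle cells (13.1 to 14.7%, 1028 of 7383) and 1.62% of corticosterone cells (1.43 to 1.84%, 247 of 15208), against 35.4% and 6.90% without thinning. Upk1b was found in 9.07% (8.43 to 9.75%) and 1.97% (1.76 to 2.21%), Rapsn in 5.08% and 1.05%, Tnfrsf17 in 4.71% and 0.684% and Myo18b in 4.00% and 0.401%. The others lay between 1.37% and 2.98% in vehicle and between 0.0658% and 0.316% in corticosterone. The members were selected on this contrast, so nothing is read from the gap between the libraries. Without thinning, Upk1b was found in 27.6% and 8.02%, Rapsn in 15.9% and 3.98%, Tnfrsf17 in 15.9% and 3.22% and Myo18b in 12.6% and 1.99%.

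These shares cannot be read as shares of expressing cells. Red cell precursors and red cells should not express these genes. Among erythroid cell-like barcodes, Csmd3 was found in 16.7% of 126 vehicle barcodes (10.6 to 24.3%) and in 0 of 72 corticosterone barcodes at the same depth, a count of 0 that allows up to 4.17%. Before thinning, median depths were 2482 (vehicle) and 3763 UMIs (corticosterone) in these barcodes and 3185 and 4001 UMIs in microglia-like cells. The vehicle share in microglia-like cells was not above that in these barcodes for 5 members: Csmd3, Tnfrsf17 (4.76% of erythroid cell-like barcodes), Calhm6 (3.17%), Lrrc39 and Col6a3 (both 1.59%). It was above for Upk1b (5.56%, 2.26 to 11.1%), Rapsn (1.59%, 0.193 to 5.62%), Myo18b, Rnase6 and Angptl7, with overlapping intervals in each of these 5. In neutrophil-like barcodes, with median depths of 3434 and 3531 UMIs, all 10 vehicle shares were below those in microglia-like cells, with Csmd3 in 8.70% of 299 (5.76 to 12.5%) and Upk1b in 4.35% (2.34 to 7.32%). Erythroid cell-like and neutrophil-like barcodes also held microglia markers, as given below.

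Whether low levels of the members went together in the same cells was read from cells that held UMIs of 2 members at a time, counted over the 45 pairs of the 10 genes. At 1000 UMIs per cell there were 709 such pair hits in 7383 vehicle cells (96.0 per 1000 cells) and 31 in 15208 corticosterone cells (2.04 per 1000 cells). If each member were missing from cells independently of the others, the vehicle hits and the ratios of the single shares would give 28.9 hits. If all members were missing from the same cells, they would give 160. At 2000 UMIs per cell the count was 111, against 104 for independent and 553 for shared absence. At both depths the count lay nearer to that of independent than to that of shared absence. UMIs of free RNA would fall over cells independently, and with the erythroid cell-like shares above, the part of such UMIs in these hits was not tested. The counts therefore do not show how the members' own expression was lost.

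The number of members per cell was close to that of independent genes in both libraries. In thinned vehicle cells 61.7% held none of the 10, 30.8% held 1, 6.56% held 2 and 0.880% held 3, against 61.4%, 31.2%, 6.54% and 0.750% if the members were independent. In corticosterone 93.5% held none, 6.26% held 1 and 0.204% held 2, against 93.5%, 6.32% and 0.172%. After thinning, 5 of 7383 vehicle cells held 4 or more, and no corticosterone cell held 3. A thinned vehicle cell showed on average only 0.468 of the 10 members, and a thinned corticosterone cell 0.0667. At so low a detection, cells that express many members would rarely show several of them. Whether a library had a class of such cells was therefore not tested by these counts.

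An excess of joint detection remained in unthinned cells. Within 20 bins of depth, pair hits were 1.03 times the product of the single shares in vehicle (9560 hits) and 1.18 times in corticosterone (759 hits). Against a single rate per UMI in all cells the ratios were 0.763 and 0.857, and such a rate gives more cells with Csmd3 than were found, 40.0% against 35.4% in vehicle. In vehicle cells with a Csmd3 UMI the other 9 members stood at 347 CPM, and in those without at 352 CPM, a ratio of 0.985 (0.950 to 1.02). In corticosterone these values were 63.3 and 55.1 CPM, a ratio of 1.15 (1.03 to 1.27). Over the 10 genes the same ratio ran from 0.925 to 1.01 in vehicle and from 0.982 to 1.41 in corticosterone. In corticosterone the highest ratios were those of Angptl7 at 1.41 (1.13 to 1.74) and Myo18b at 1.33 (1.13 to 1.56). Cells with a UMI of a member were deeper than those without. In cells of 2000 to 8000 UMIs the ratio in corticosterone ran from 0.761 to 1.66, with Angptl7 at 1.66 (1.18 to 2.26) and Myo18b at 1.61 (1.32 to 1.94). Such cells held 447 pair hits in corticosterone, where the product of the single shares gives 357. In vehicle they held 4990, where it gives 4865. The same ratios were not taken for other genes of similar level, the 10 ratios draw on the same cells, and the intervals are too narrow. No joint control is read from these ratios.

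**Figure D4:**
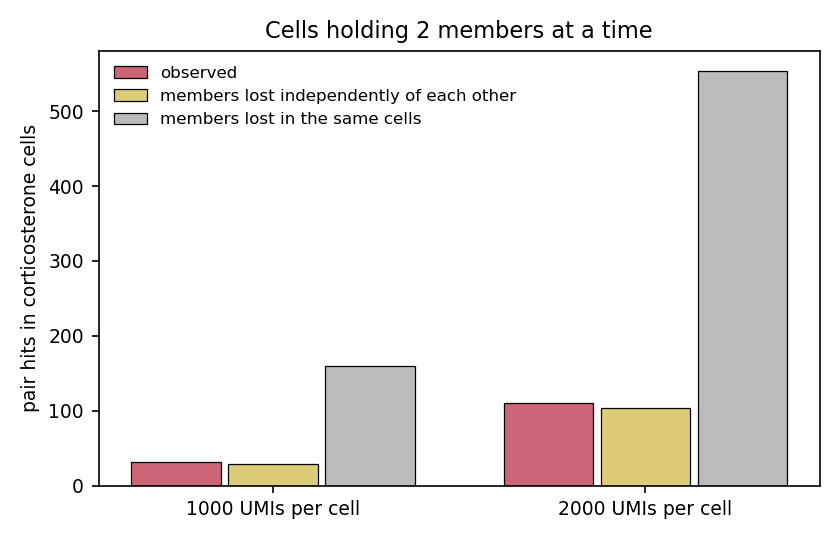
Pair hits, cells with a UMI of both genes summed over 45 pairs, in corticosterone microglia-like cells thinned to 1000 or 2000 UMIs (red), beside the number that vehicle hits give if members were missing independently or from the same cells. The observed 31 and 111 lie beside 28.9 and 104 and under 160 and 553.

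For a single gene, absence from some cells and a partial lowering in all cells differ in how UMIs scatter over cells. The extra-Poisson variation, the squared coefficient of variation over cells beyond counting noise at each cell's depth, was 0.626 for Csmd3 in vehicle and 2.85 in corticosterone. Absence from some cells with the vehicle pattern kept in the rest would give 12.6. A lowering alike in all cells would give between 0.626 and 5.24, the higher value where repeated UMIs in a cell are kept together. The value of Csmd3 lay within the range of a lowering alike in all cells. Upk1b, at 0.420 in vehicle and 2.82 in corticosterone, lay nearer to the value for a lowering alike with repeats kept (2.02) than to that for absence from some cells (5.82). Myo18b, at 8.06, Rnase6, at 22.7, and Col6a3, at 19.9, also lay nearer to the former (7.09, 20.2 and 18.9) than to the latter (13.8, 30.4 and 25.9).

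For other members the values lay elsewhere. Rapsn, at 7.75, lay nearer to the 7.81 of absence from some cells than to the 3.82 of a lowering alike, and so did Angptl7, at 23.1 against 22.6 and 15.6. Calhm6, at 19.2, also lay nearer to absence from some cells (22.7) than to a lowering alike (14.6), and Tnfrsf17, at 7.22, lay about midway between 9.85 and 4.64. Lrrc39, at 135, lay above both, and 6 of its 58 UMIs were in 1 cell. The values depend on which cells are taken. In cells of 2000 to 8000 UMIs, Csmd3 stood at 1.06 in vehicle and 4.10 in corticosterone, still within the range of a lowering alike (up to 8.83). There Tnfrsf17, at 10.7, was nearer to a lowering alike (9.66) than to absence from some cells (15.1), and Calhm6, at 23.2, likewise (24.2 and 32.2). Rapsn, at 10.8, remained nearer to absence from some cells (11.1 against 7.16), and Angptl7, at 40.7, lay above both (36.4 and 27.8). These values carry no error estimate, and the part of free RNA in them was not tested. Genes of similar level had high values too in corticosterone, with a median of 2.57 over 894 genes at the level of Rapsn and 1.5 over 1258 genes at that of Csmd3. Of corticosterone cells with Rapsn, 18.2% held 2 or more UMIs, where a single rate would give 3.22%, and for Csmd3 these shares were 16.1% and 5.28%. The variance of UMIs per cell in corticosterone was 1.32 times the mean for Csmd3 and 1.51 times for Rapsn, against medians of 1.17 and 1.18 for genes of their level.

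The remaining barcodes lie outside the microglia-like cells whose ratio the genes were selected on. In border-associated macrophage-like barcodes, named for macrophages of the meninges and vessels (1026 vehicle and 804 corticosterone), all 10 members were lower, with a median log2 ratio of -2.96. Of genes averaging 20 CPM or more there, 1.17% were at or below -1. Csmd3 went from 114 to 15.0 CPM (log2 ratio -2.92, -3.23 to -2.63) and Upk1b from 92.3 to 14.3 CPM (-2.69, -3.0 to -2.39). Tnfrsf17 had the smallest difference there, from 59.3 to 18.4 CPM (-1.69, -1.98 to -1.41), which did not overlap its interval in microglia-like cells. In neutrophil-like barcodes (320 and 381) the 8 members with UMIs in both libraries were all lower by at least 1, with a median of -3.32. Of genes averaging 20 CPM or more in those barcodes, 3.92% were at or below -1. In erythroid cell-like barcodes (158 and 74) the 6 such members were lower by at least 1, with a median of -2.49. This held for 5.52% of genes averaging 20 CPM or more there. The intervals of Lrrc39 and Rnase6 in erythroid cell-like barcodes, each with 1 UMI in corticosterone, include 0. Several members averaged under 20 CPM in each of these groups of barcodes, so the shares of genes are not a like comparison for them.

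These barcodes also held microglia markers, and the members' levels lay near theirs in part. Relative to microglia-like cells of the same library, Siglech, Tmem119, P2ry12 and Sall1 had a median level of 0.570 (vehicle) and 0.377 (corticosterone) in neutrophil-like barcodes. The median over the 10 members was 0.573 and 0.417. Single members there ran from 0.197 (Col6a3) to 0.766 (Rnase6) in vehicle. In corticosterone they ran from 0 (Lrrc39 and Col6a3) to 2.69 (Rnase6, from 15 UMIs). In erythroid cell-like barcodes these relative levels were 0.791 and 0.832 for the markers and 0.809 and 0.425 for the members, the last from 14 UMIs in all. In macrophage-like barcodes the members stood at 0.980 and 1.04, above the markers at 0.809 and 0.649. How much of a member's level in such barcodes is microglial RNA was not tested, and the lower levels outside microglia-like cells are not independent of those inside.

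**Figure D5:**
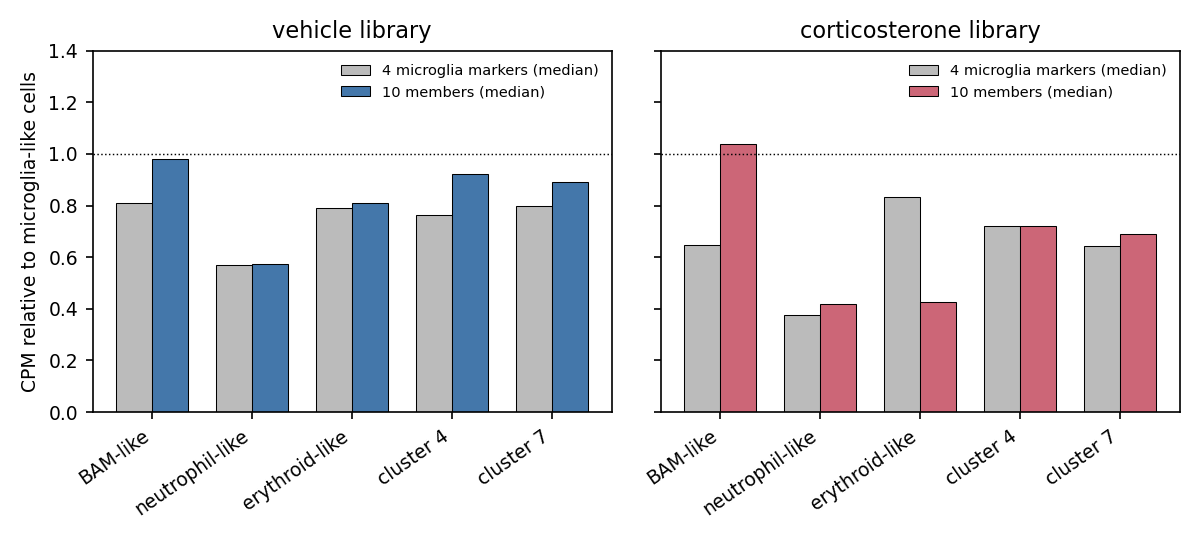
CPM relative to microglia-like cells of the same library (y axis, dotted line at 1) for 4 microglia markers (grey, median) and for the 10 members (coloured, median) in the other groups of barcodes, for vehicle (left) and corticosterone (right). BAM-like stands for border-associated macrophage-like. The medians of members and markers lie close together in neutrophil-like barcodes, at 0.573 and 0.570 in vehicle, where single members ran from 0.197 to 0.766.

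Rnase6 differed in direction between groups of barcodes. In cluster 7, which was led by class II histocompatibility genes and stayed unnamed (174 vehicle and 77 corticosterone barcodes), Rnase6 stood at 51.7 CPM (40.6 to 65.0, 74 UMIs) in vehicle and at 83.9 CPM (63.3 to 109, 56 UMIs) in corticosterone. Its log2 ratio there was 0.70 (0.17 to 1.22), against -3.48 in microglia-like cells. The microglia markers of that cluster stood at 0.799 and 0.645 times their microglia-like level, and Rnase6 in the same proportion would be at 23.3 and 1.68 CPM. In monocyte-like barcodes, of which there were 20 and 61, Rnase6 stood at 294 CPM (213 to 396) and 223 CPM (184 to 268), with overlapping intervals. Calhm6 in monocyte-like barcodes had 2 and 15 UMIs, 13.7 CPM (1.66 to 49.4) and 28.8 CPM (16.2 to 47.6), with overlapping intervals. In cluster 7, 8 of the 9 members with UMIs in both libraries were lower by at least 1. So were 3.35% of genes averaging 20 CPM or more there, a level that several of these members did not reach.

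Csmd3 and Myo18b stood apart from the other members in cluster 4. It stayed unnamed (606 vehicle and 1131 corticosterone barcodes), had a median of 1150 and 1261 UMIs and was led by Kcnq1ot1, a nuclear long non-coding RNA, and by transcripts of long genes such as Fhit. There Csmd3 had 1298 CPM (vehicle) and 268 CPM (corticosterone), 8.77 and 15.1 times its microglia-like level, and Myo18b had 156 and 29.1 CPM, 4.16 and 6.01 times. The genes of these 2 members span 1211 and 207 kb, and the other 8 members 1.92 to 78.0 kb. Of those 8, Col6a3 was the highest relative to microglia-like cells, at 1.93 times in vehicle. The log2 ratio in cluster 4 was -2.28 (-2.41 to -2.15) for Csmd3 and -2.42 (-2.84 to -2.02) for Myo18b. All 10 members were lower by at least 1 there. So were 1.67% of genes averaging 20 CPM or more there, a level that several members did not reach. In cluster 10, which was also of low depth in vehicle (149 barcodes, median 920 UMIs), Csmd3 and Myo18b stood at 0.837 and 0.774 times their microglia-like level in vehicle.

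At 20 CPM or more, no relative of the members had a log2 ratio at or below -1. Of all 6602 genes at that level, 1.30% did, and their median was 0.00. With so low a share, nothing is read from the absence of such relatives. In the BAFF and APRIL axis, Tnfrsf13b, the other receptor (TACI), stood at 131 and 111 CPM (log2 ratio -0.24), and the ligand Tnfsf13b (BAFF) at 13.9 and 28.1 CPM (1.02). Of 6 genes of that list besides Tnfrsf17 at that level, 4 were higher and 2 lower. Of 5 genes of the ribonuclease list, Rnase4 was the lowest, at 1425 and 824 CPM (-0.79), and Rnh1, the ribonuclease inhibitor, the highest (0.25). Of 9 other myosins, 7 were higher and 2 lower, from Myo1e at -0.62 to Myo1c at 0.83, and Myo18a, the close relative of Myo18b, was at -0.04. Of 14 other tetraspanins, 10 were higher and 4 lower, from Tspan4 at -0.74 to Cd63 at 0.48. Calhm2 stood at 0.14, the complement regulator Cr1l at 0.31, the collagen receptor subunit Itgb1 at 0.03 and Pirb, a receptor for angiopoietin-like proteins, at 0.24. No other gene of the sarcomere and acetylcholine receptor lists reached 20 CPM.

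Several partners that the members' products work with elsewhere were near 0, whereas Tnfsf13b and Itgb1, given above, and Agrn and Lrp4, of the nerve-muscle synapse, were not. Agrn had 197 and 594 UMIs and Lrp4 172 and 302. Col6a1 and Col6a2, the chains with which Col6a3 assembles, had 0 UMIs in vehicle and 1 each in corticosterone. The uroplakins Upk2, Upk3a and Upk3b had none in either library and Upk1a had 3 and 4. The acetylcholine receptor subunits Chrna1, Chrnb1, Chrnd and Chrne had at most 21 UMIs in a library, and the kinase Musk had 2 and 5. Among genes under 20 CPM that were singled out after their values were seen, Rnase10, a ribonuclease-like gene known from the epididymis, had 101 UMIs (3.04 CPM) in vehicle and 8 (0.112 CPM) in corticosterone, a log2 ratio of -4.77 (-6.02 to -3.74). Myom1, a sarcomere protein, stood at 6.81 and 3.08 CPM (-1.14, -1.42 to -0.87), and Myo1d at 5.24 and 1.70 CPM (-1.62, -1.97 to -1.28). Other genes of the lists under 20 CPM were higher in corticosterone, with intervals above 0. Among them were Antxr2 with 35 and 397 UMIs (log2 ratio 2.39) and Tnfsf13 (APRIL) with 7 and 74 (2.29). Lilrb4a had 59 and 472 UMIs (1.89) and Tnnt3 3 and 46 (2.83).

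Neighbours on the chromosome were compared next. Of 18 genes of at least 20 CPM among the nearest protein-coding neighbours in RefSeq (GRCm38.p6), 9 were lower and 9 higher, with a median log2 ratio of -0.04, and 1 was at or below -1. That gene was Snx29, a sorting nexin that starts 2.79 kb after Tnfrsf17 on the same strand, at 46.6 and 22.1 CPM (-1.08, -1.18 to -0.97). Of all 6602 genes at 20 CPM or more, 1.30% were at or below -1, and nothing is read from 1 gene. The nearest such neighbours of Rapsn, Psmc3 and Celf1, were at 0.11 and -0.44, and B4galt4 beside Upk1b was at 0.00. Whether counting used strand was not given in the sources used here, so reads of Angptl7 and the kinase gene Mtor around it cannot be told apart, nor those of Lrrc39 and Trmt13. Mtor stood at 20.1 and 17.6 CPM (-0.20) and Trmt13 at 19.2 and 16.3 CPM (-0.24).

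Genes with the most similar pattern across vehicle cells were sought by Pearson's r of log2(CPM + 1) over 11 groups of vehicle barcodes, which share a library and differ in depth, and 2 were named for each member. None of the 20 was another member. Csmd3 was most like Luc7l2 (r = 0.974) and Snx29 (0.971), Myo18b like Cacna1d (0.985) and Bbs9 (0.981), Tnfrsf17 like Mrpl34 (0.951) and Upk1b like St3gal6 (0.961). Between the libraries these 20 genes had log2 ratios from -1.08 (Snx29) to 0.30 (Dapk3), with a median of -0.13, and 1 of the 20 was at or below -1. So were 1.30% of all 6602 genes at 20 CPM or more, and nothing is read from this 1 gene.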

How the data were processed

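The deposited files are raw UMI count matrices, 1 per library, from the GEXSCOPE single-cell kit, per the labels' protocols. Reads were made with bcl2fastq 2.19 and the genome was GRCm38, per the submitters' processing notes. The aligner, the counting of strand and the calling of cells are not given in the sources used here. File names differ from the group names, and each file was assigned through its sample's record.

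Cells with at least 500 UMIs, 300 genes and at most 20% mitochondrial UMIs were kept (10500 of 10555 and 17883 of 18113). They were clustered with the Leiden method (leidenalg 0.10.2) at resolution 0.5 with the 10 genes left out, and clusters were named from marker lists. The naming thresholds, with folds taken within each library, were set after seeing the data. Microglia-like cells were clustered again at resolution 0.4 with genes centred within library. Scrublet marked 0 cells in both libraries, which was read as a failure of the caller, and doublets were left in. CPM is the summed UMIs of a group for each 1000000 of its UMIs, and of 52 repeated symbols the first was used. Intervals are exact Poisson, conditional binomial or Clopper-Pearson intervals at 95%. They cover counting error only, and a count of 0 is given a limit of 3 counts. Gene coordinates are from GENCODE M21 and promoters and neighbours from RefSeq, both on GRCm38. The members and lists were chosen with earlier results of these data known.

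The genes named are the members, the highest and lowest gene of each related list at 20 CPM or more, neighbours on the chromosome, the 2 genes most alike each member in vehicle and the genes next in order of ratio. Other genes named were chosen after their values were seen. A few genes that these rules would name are not reported here. The ratios and intervals were tested on simulated Poisson counts, the model that the intervals assume. The simulation held no clumping of UMIs in cells, so it does not show how well the intervals cover in these data. Alternatives were other scalings (edgeR 4.0.16 TMM, DESeq2 1.42.0 size factors), cell filters, cluster resolutions, cell weights and thinning.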

Additional observations from a re-analysis of the deposited data

Results flagged for a closer look

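Rnase6 in cluster 7, the unnamed barcodes led by class II histocompatibility genes, was flagged because its direction differed from that in microglia-like cells. Its log2 ratio of corticosterone over vehicle was 0.70 there, from 74 UMIs in vehicle and 56 in corticosterone, against -3.48 in microglia-like cells, and the difference between the groups of barcodes was not tested.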

How the results depend on the processing

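The 10 members were lower in corticosterone under each of 14 settings, with log2 ratios from -4.41 to -2.15, and all 10 stayed at or below -1. The members were selected on this contrast and the settings draw on the same 2 libraries, so nothing is read from that count. The median of the members was -2.79 when all cells were taken with no class and -3.29 when cells were thinned to 1000 UMIs, against -2.99. TMM and DESeq2 factors shifted every ratio by 0.09 and 0.11, and the median of all genes by as much. The share of all genes at or below -1 was 2.04% at a minimum of 5 CPM and 14.7% with no minimum. Pair detection over its expectation was 1.03 in vehicle and 1.18 in corticosterone within depth bins, against 0.763 and 0.857 at a single rate per UMI. The cause of these shifts was not tested. The settings that left out cells clustering with the other library, or kept unnamed clusters, were chosen after seeing the data. No paired analysis was possible because there was 1 library per group. Depth limits Lrrc39 most, with 58 UMIs in corticosterone.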
